A study of Homo sapiens with 9 samples.

Results

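Iron uptake, storage and regulation were followed through 8 genes chosen by name for their roles in cellular iron handling. TFRC and SLC11A2 stand for uptake, FTH1 and FTL for storage, NCOA4 for release from storage, SLC40A1 for export, and ACO1 and IREB2 for regulation. Of these 8 genes, 7 were among the 22290 genes measured, and SLC40A1 was not analysed here. RNA sequencing was done on 9 libraries of cells labelled IMR-32, a long-established line of human neuroblastoma, to compare cells with altered TRAP-1, a mitochondrial chaperone encoded by TRAP1, with their parental cells. The values are regularized log2 read counts (rlog), which are scaled for library size and drawn toward each gene's mean, so differences and folds taken from them are smaller than those of the counts. Such values do not show the depth of any 1 library. The study's methods state a nominal number of reads, and the reads each library gave are not known here.

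The 3 groups had 3 libraries each. The parental libraries (PAR) carry the genotype label WT, and the other groups are labelled TRAP-1 knockdown, abbreviated KD, and TRAP-1 overexpression, abbreviated OE. The study's methods give a serum-containing medium for IMR-32 cells. The altered lines came from earlier work of the same group. Their knockdown reagent, expression vector, promoter and number of clones are not given in the sources used here, and the control was untreated parental cells, not a line carrying an empty vector. Line and TRAP-1 status therefore cannot be told apart. Nothing in the sources says that the 3 libraries of a group came from separate cultures, so p-values measure the spread between these libraries, which may be technical.

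As counted, the targeted gene went against the labels. TRAP1 had rlog values of 10.67, 10.66 and 10.65 in PAR, 10.79, 10.79 and 10.83 in the libraries labelled KD, and 10.67, 10.63 and 10.74 in those labelled OE. The libraries labelled KD were thus the highest, and those labelled OE overlapped PAR. The difference from PAR was 0.14 in the libraries labelled KD (adjusted p = 1.8e-05 from limma) and 0.018 in those labelled OE (adjusted p = 0.643 from limma). The latter was 0.065 once the median difference of each 20-Mb block of chromosome was removed (adjusted p = 0.0289 from limma, the lowest of 15 refits that ranged up to 0.782). The lowest difference in OE over these refits was -0.012, without OE replicate 3. Of the exonic bases of TRAP1, 28.5% are shared with other genes, mainly DNASE1 on the opposite strand. DNASE1, at a mean rlog of 7.53, rose by 0.16 in KD (adjusted p = 9.6e-04 from limma), and reads from the bases they share cannot be told apart without strand. KD and OE below name the labels of the libraries, not a measured level of TRAP1.

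The cell type label was compared with its markers. Of 16 markers of adrenergic neuroblastoma, 11 were measured and 6 had a mean rlog of 5 or more. ISL1 was the most abundant, with a mean of 9.29. GATA2 (9.20), ALK (8.60) and GATA3 (7.27) were also well above that level, whereas MYCN (2.54), PHOX2A (1.34) and TH (2.73) were close to the floor of the table. The defining oncogene and the enzyme of catecholamine synthesis were thus near the floor under this label. The study's methods state that the IMR-32 line was authenticated. Summed over the list, the levels (2 raised to the rlog) were 2022, 1972 and 2000 in PAR, 1927, 1910 and 1952 in KD, and 1841, 1918 and 1870 in OE. Every sum in KD and OE was below those in PAR. Of the 11 markers, 3 were called higher and 5 lower in KD by limma, and 0 higher and 3 lower in OE (0 and 5 at an unadjusted p under 0.05). These are 72.7% and 27.3%, beside 53.7% and 34.8% of all genes. ALK rose by 0.20 in KD and fell by 0.22 in OE, and ISL1 fell by 0.16 in KD.

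Markers of other cell types were also present. Of 12 fibroblast or mesenchymal markers 11 were measured, 5 at a mean rlog of 5 or more, and their summed levels were 74414, 74278 and 74199 in PAR, 86771, 87396 and 86668 in KD, and 89944, 89094 and 90543 in OE. VIM was the most abundant of them, with a mean rlog of 15.89, while COL1A2 (1.37) and COL3A1 (1.16) were near the floor. Of 14 epithelial markers 11 were measured, 5 of them at a mean rlog of 5 or more and KRT18 (12.04) the most abundant. Their summed levels were 6860, 6875 and 6809 in PAR, 7068, 7264 and 7318 in KD, and 6205, 6161 and 6195 in OE, with EPCAM at a mean of 2.58. Macrophage and blood markers, of which 4 of 8 were measured, summed to 66, 66 and 66 in PAR, 60, 61 and 61 in KD, and 61, 68 and 63 in OE, with CSF1R (5.32) the most abundant and PTPRC at 2.65. Of these 4, limma called 2 lower in KD and 1 lower in OE, where 26.9% and 18.0% of all genes were called lower. In both comparisons 0 were called higher, also at an unadjusted p under 0.05. The mesenchymal and epithelial sums differed between the 3 groups without overlap, but they mostly reflect their most abundant genes. In OE, 6 of the 11 mesenchymal markers were called higher and 0 lower by limma (8 and 0 at an unadjusted p under 0.05), where 16.9% of all genes were called higher. These were PRRX1, which rose by 0.69, FN1 (0.55), TWIST1 (0.28), LUM (0.22), VIM (0.15) and FAP (0.063, near the floor at a mean rlog of 1.76). In KD, 3 of these markers were called higher and 2 lower, 45.5% in all, where 53.7% of all genes were called, 26.9% higher and 26.9% lower. PRRX1 rose by 1.29, TWIST1 by 0.43 and VIM by 0.36, whereas FN1 fell by 0.96 and LUM fell by 0.18. Of the 11 epithelial markers, 2 were called higher and 2 lower in KD, or 36.4% beside the 53.7% of all genes. In OE 1 was called higher and 4 lower, where 16.9% of all genes were called higher and 18.0% lower. KRT14 fell by 0.70 in KD and by 0.49 in OE, whereas KRT8 rose by 0.39 and 0.40. DSP rose by 0.37 in KD and fell by 0.19 in OE, and CLDN4 fell by 0.57 in OE. The part of these markers in the differences of the iron genes was not tested. In bulk libraries such as these, fewer cells of a type and less RNA per cell cannot be told apart.

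Cells take up iron bound to transferrin through the transferrin receptor, keep it in a ferritin shell built of heavy (FTH1) and light (FTL) chains, and recover it when NCOA4 carries ferritin to the lysosome. When iron is scarce, the iron-regulatory proteins encoded by ACO1 and IREB2 bind hairpins called iron-responsive elements (IREs), which protects the TFRC message from decay and blocks translation of the ferritin messages. Dividing tumour cells, neuroblastoma among them, need much iron and usually carry abundant transferrin receptor.

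The hairpins of TFRC and FTL are shown because these messages, of uptake and of storage, both held the letters searched for. The letters searched were a C, any 5 bases, the loop CAGTGN and 5 bases that pair with the former 5, G-T pairs allowed, on the transcribed strand of the untranslated regions (UTRs) annotated on GRCh38. Each line gives 30 bases of the genome, 5′ to 3′ and with T for U, and the capitals mark the loop.
TFRC element 1: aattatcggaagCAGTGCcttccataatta
TFRC element 2: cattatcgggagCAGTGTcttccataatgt
TFRC element 3: ctgtatcggagaCAGTGAtctccatatgtt
TFRC element 4: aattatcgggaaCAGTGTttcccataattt
FTL element: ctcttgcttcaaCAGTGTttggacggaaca
The TFRC matches lie in its 3′ UTR on the minus strand, at chr3:196050978-196051007, chr3:196050574-196050603, chr3:196050509-196050538 and chr3:196050462-196050491. The FTL match lies in the 5′ UTR at chr19:48965335-48965364 on the plus strand. Of the 30 positions, 19 to 25 were identical between any pair of the TFRC matches, and 11 to 13 between a TFRC match and the FTL match. The C and the letters CAGTG were fixed by the search, so they count as identical in every pair. How many positions would be identical between unrelated matches was not counted, so these numbers are not read as a likeness of TFRC and FTL. The same letters were found in the 5′ UTRs of 36 of 14267 genes (0.252%) and in the 3′ UTRs of 128 of 14423 genes (0.887%). There were 0 matches in SLC11A2, NCOA4, ACO1 and IREB2, which says only that these letters are not in their annotated UTRs. The search also covered FTH1 and SLC40A1. Its results for them are not given here, so no absence of the letters is meant for these genes. A match is a description, not a site or a cause.

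Against PAR, the libraries labelled KD had less TFRC, FTH1 and NCOA4 RNA and more FTL RNA, and those labelled OE had less TFRC, FTH1 and ACO1 RNA and more FTL RNA. A gene was called at an adjusted p under 0.05 in limma over all 22290 genes. In KD against PAR, 1 of the 7 measured members was called higher, 3 were called lower and 3 were not called, where 53.7% of all genes were called, 26.9% higher and 26.9% lower. For OE against PAR the counts were 1 higher, 3 lower and 3 not called, where 34.8% of all genes were called, 16.9% higher and 18.0% lower. Between OE and KD, 4 members were called higher in OE, 1 lower and 2 not called, where 47.3% of all genes were called, 23.5% higher and 23.8% lower. All 7 measured members were abundant, and among the 9956 genes whose mean rlog was 8 or more the called shares were 75.8% in KD, 56.7% in OE and 68.3% between OE and KD. The members' counts, 4, 4 and 5 of 7, were thus near or below the shares for all genes of such levels. The median difference of the members was -0.017 in KD, -0.033 in OE and 0.073 between OE and KD, beside medians over all genes of -5.1e-04, 3.9e-04 and 7.8e-04. The comparisons with PAR share the parental libraries, so their values are given side by side.

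**Figure D1:**
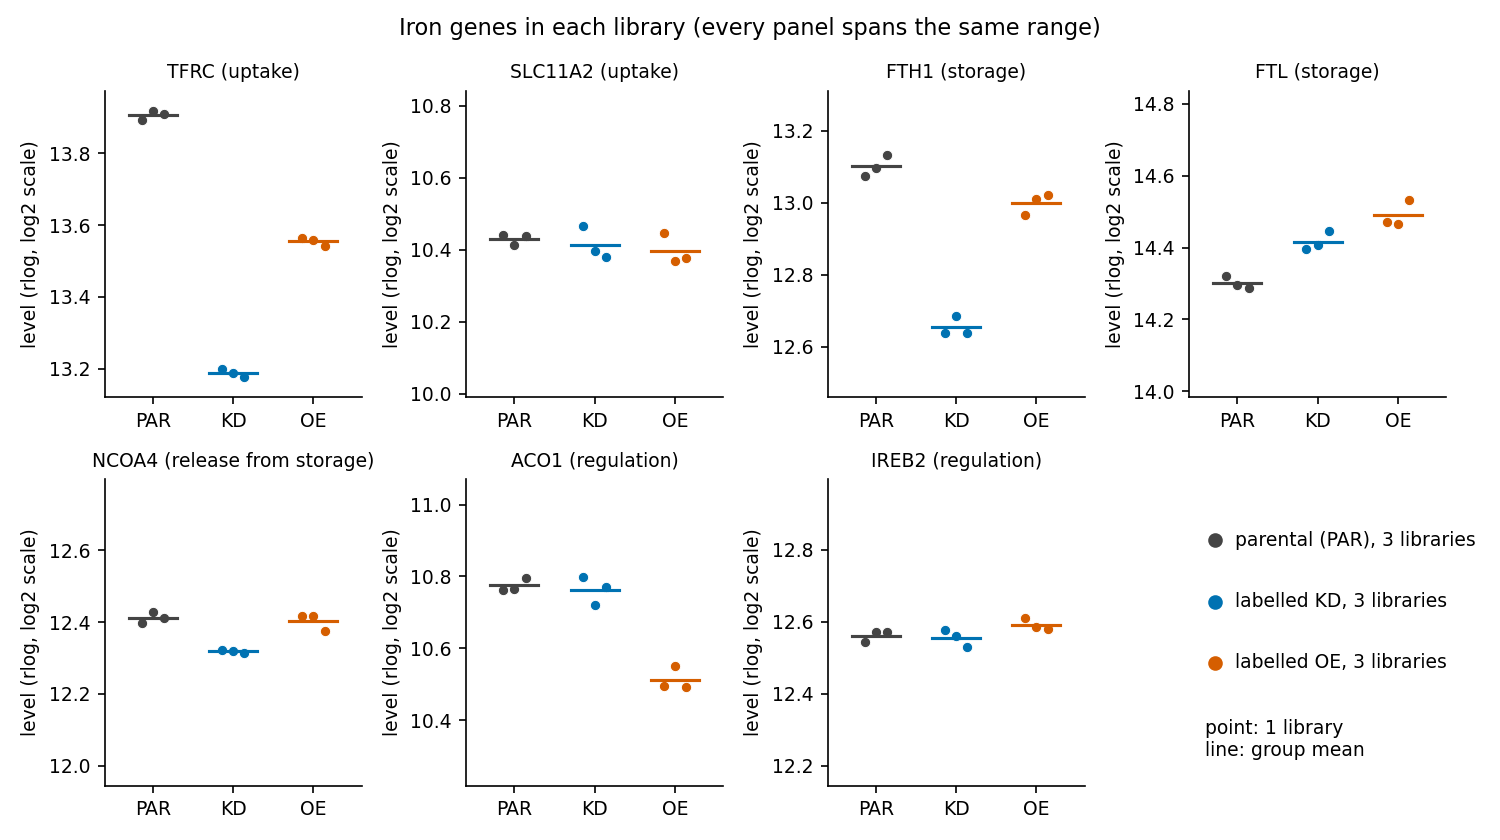
Level (rlog, log2 scale) of the 7 measured iron genes in each of the 9 libraries, with 1 point for each library and a line at the group mean; every panel spans the same range. TFRC, FTH1 and FTL separate the 3 groups, ACO1 is low in OE, NCOA4 is low in KD, and SLC11A2 overlaps between all groups.

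TFRC (ENSG00000072274, chromosome 3, minus strand, 196012511 to 196082153 on GRCh38) encodes the transferrin receptor. Its rlog values were 13.89, 13.92 and 13.91 in PAR, 13.20, 13.19 and 13.18 in KD, and 13.56, 13.56 and 13.54 in OE. The libraries fell into 3 tight, separate levels, PAR above OE and OE above KD, as the plot of the members by library shows. TFRC fell by 0.72 in KD (standard error 0.013, 95% interval -0.75 to -0.69, adjusted p = 4.8e-29 from limma, n = 3 libraries per group), a level 1.65-fold lower on the rlog scale. In OE it fell by 0.35 (adjusted p = 6.3e-20 from limma, standard error 0.013), which is 1.28-fold lower. Between the altered lines, OE was above KD by 0.37 (adjusted p = 4.4e-21 from limma), so the line labelled OE stood between the other groups. These differences were many times the spread within a group, whose standard deviations were 0.013 in PAR, 0.011 in KD and 0.012 in OE. Most genes around TFRC did not share its decrease in KD. Of 102 neighbours in its 20-Mb block (mean rlog 5 or more), 80.4% were above PAR in KD, with a median difference of 0.22. With block medians removed, the difference of TFRC was -0.93 in KD and 0.59 between OE and KD, both still called. The block medians removed, here and below, are not exactly the medians of the neighbours.

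SLC11A2 (chromosome 12, minus strand, 50979401 to 51028566), which carries ferrous iron across membranes, had rlog values of 10.44, 10.41 and 10.44 in PAR, 10.47, 10.40 and 10.38 in KD, and 10.45, 10.37 and 10.38 in OE. The 3 groups overlapped. Its differences were -0.017 in KD (adjusted p = 0.634 from limma), -0.033 in OE (adjusted p = 0.386 from limma) and -0.016 between OE and KD (adjusted p = 0.664 from limma). The 95% intervals ran from -0.071 to 0.038 in KD and from -0.087 to 0.022 in OE, so larger shifts on this scale lay outside them.

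FTH1 (ENSG00000167996, chromosome 11, minus strand, 61959718 to 61967634) encodes the ferritin heavy chain, which oxidizes ferrous iron for storage. Its rlog values were 13.08, 13.10 and 13.13 in PAR, 12.64, 12.68 and 12.64 in KD, and 12.97, 13.01 and 13.02 in OE. PAR was the highest group, OE lay a little below it and KD far below both, with no overlap. FTH1 fell by 0.45 in KD (standard error 0.018, 95% interval -0.48 to -0.41, adjusted p = 2.1e-20 from limma), a level 1.36-fold lower. The decrease in OE was much smaller: FTH1 fell by 0.10 (standard error 0.018, adjusted p = 1.6e-05 from limma), 1.07-fold lower, or by 0.067, still called, once its block median was removed. OE was above KD by 0.35 (adjusted p = 3.1e-17 from limma).

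The FTH1 value carries limits of counting. Of its 2004 exonic bases, 1267 (63.2%) are shared with BEST1 on the opposite strand, and the library kit does not mark strand. BEST1 itself was listed at a mean rlog of 4.28 and rose by 0.28 in KD (adjusted p = 2.4e-07 from limma), the opposite direction to FTH1. In OE it rose by 0.11 (adjusted p = 0.0334 from limma), again opposite to FTH1, whose decrease there was small. Of 25 annotated FTH1 pseudogenes, 3 were in the table (FTH1P2, FTH1P7 and FTH1P8), and together they amounted to between 2.96% and 3.59% of the FTH1 level in a library. All 3 fell in KD, by 0.19, 0.29 and 0.30 in that order (adjusted p of at most 0.00154 from limma), and their differences in OE, 0.015, 0.029 and -0.011, were not called. Reads of FTH1 and of these near-copies cannot be told apart here.

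FTL (ENSG00000087086, chromosome 19, plus strand, 48965309 to 48966879) encodes the ferritin light chain, which helps the iron core form. Its rlog values were 14.32, 14.30 and 14.29 in PAR, 14.40, 14.41 and 14.45 in KD, and 14.47, 14.47 and 14.53 in OE. All KD libraries lay above all PAR libraries, and all OE libraries above all KD libraries. FTL rose by 0.12 in KD (standard error 0.015, 95% interval 0.085 to 0.15, adjusted p = 5.2e-08 from limma), 1.08-fold, and by 0.19 in OE (adjusted p = 4.5e-12 from limma, standard error 0.015), 1.14-fold. The step from KD to OE was 0.073 (adjusted p = 1.1e-04 from limma). These are small differences, and FTL was the single member called higher than PAR in either comparison. Of 16 annotated FTL pseudogenes 3 were in the table, at 0.161% to 0.192% of the FTL level.

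**Figure D2:**
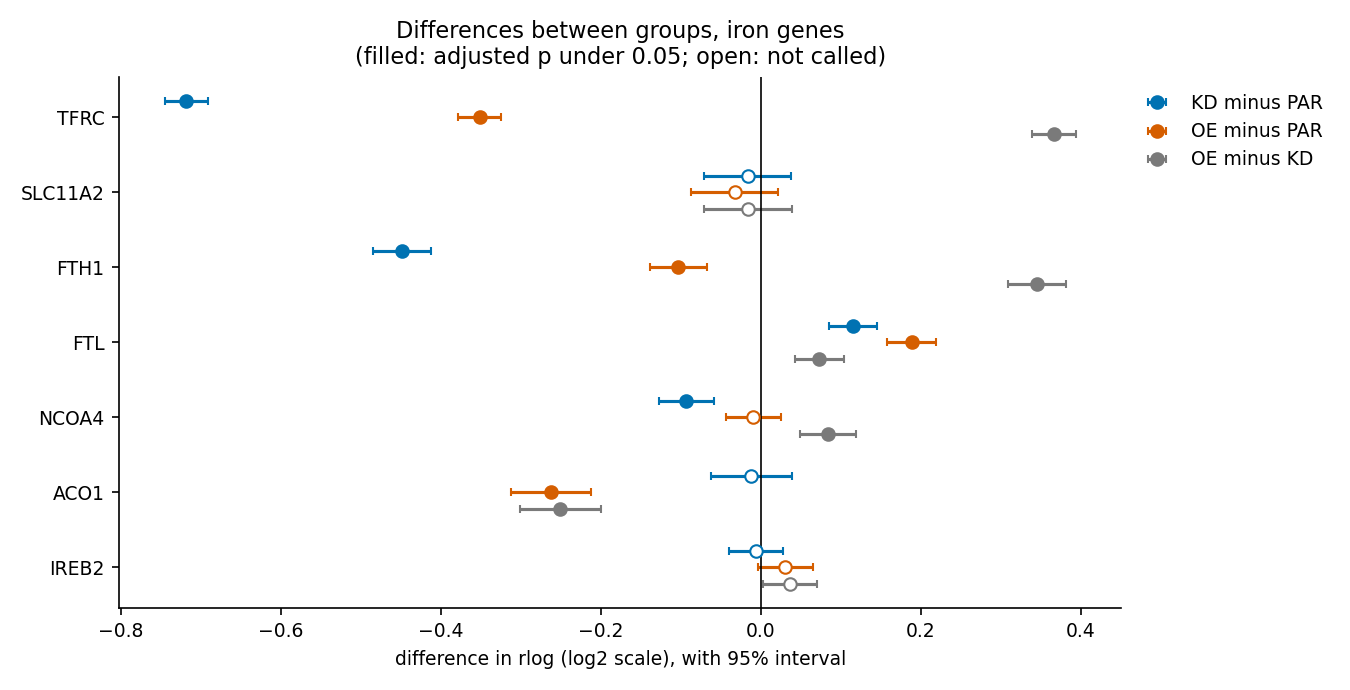
Difference in rlog (log2 scale) between groups for the 7 measured members, with 95% intervals from limma; filled points have an adjusted p under 0.05. TFRC and FTH1 lie to the left of 0 against PAR in both altered lines and to the right between OE and KD, while FTL lies to the right in all 3 comparisons.

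Against PAR, the RNAs of the ferritin chains thus moved in opposite directions, and the balance of these RNAs was read within each library. The libraries do not measure the chains themselves. The rlog value of FTH1 minus that of FTL was -1.24, -1.20 and -1.15 in PAR, -1.76, -1.72 and -1.81 in KD, and -1.50, -1.46 and -1.51 in OE. The 3 groups did not overlap, and every library of the altered lines had less FTH1 relative to FTL than every parental library. Divided by the length of the canonical transcript, the level of FTL was 3.17-fold that of FTH1 in PAR, 4.69-fold in KD and 3.88-fold in OE. These ratios describe the 9 libraries, without a test, and their size rests on the FTH1 counts. BEST1 was at a mean rlog of 4.28, so few reads of the bases it shares with FTH1 were credited to it. How such reads, and those matching the pseudogenes, were counted is not given here. Any reads dropped there would lower the level of FTH1 and raise these ratios.

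TFRC and FTH1, which stand for uptake and storage, were compared in the same way. The rlog value of TFRC minus that of FTH1 was 0.82, 0.82 and 0.77 in PAR, 0.56, 0.50 and 0.54 in KD, and 0.60, 0.55 and 0.52 in OE. Both altered lines lay below PAR and overlapped each other, although KD and OE differed in the level of each gene. TFRC minus FTL was -0.43, -0.38 and -0.38 in PAR, -1.20, -1.22 and -1.27 in KD, and -0.91, -0.91 and -0.99 in OE. By this measure the groups separated again, with KD the lowest. The plot of differences within a library shows these pairs beside the regulators.

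**Figure D3:**
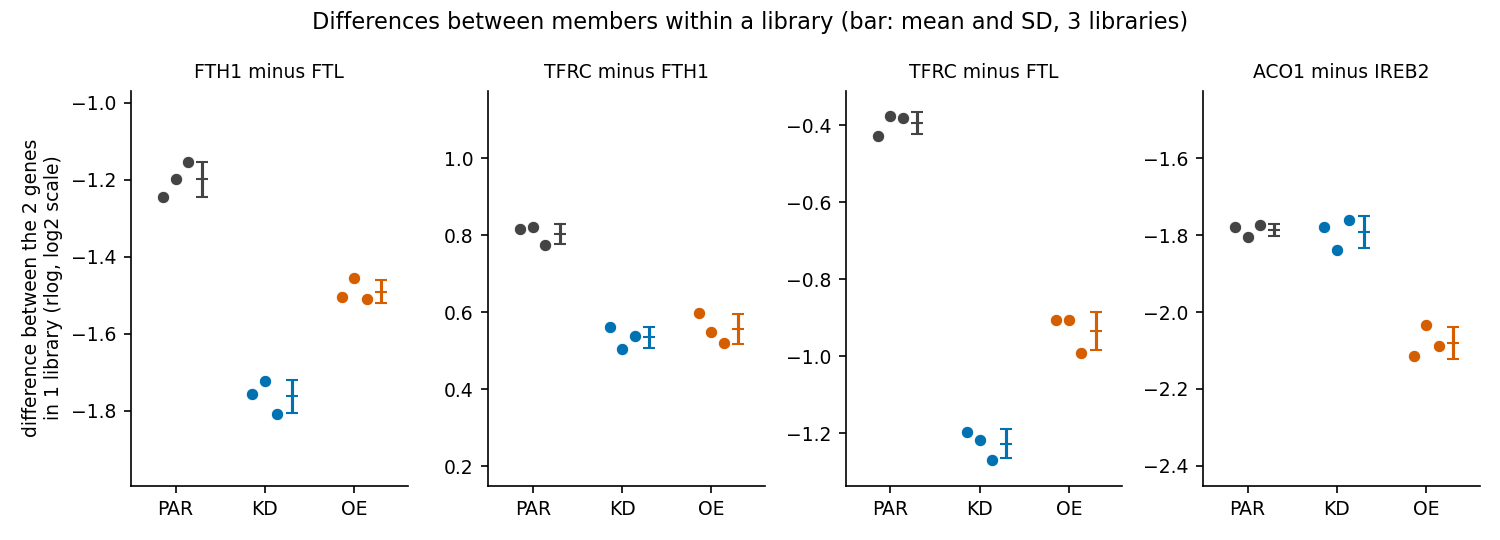
Difference between the rlog values (log2 scale) of a pair of members in each of the 9 libraries, with the mean and standard deviation of each group beside its points; the panels span the same range. FTH1 minus FTL and TFRC minus FTL separate the 3 groups, TFRC minus FTH1 sets PAR apart from KD and OE, and ACO1 minus IREB2 sets OE apart from PAR and KD.

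NCOA4 (ENSG00000266412, chromosome 10, minus strand, 46005088 to 46030623), the receptor that delivers ferritin for breakdown, had rlog values of 12.40, 12.43 and 12.41 in PAR, 12.32, 12.32 and 12.31 in KD, and 12.42, 12.42 and 12.37 in OE. The KD libraries were the lowest 3, and OE overlapped PAR. NCOA4 fell by 0.093 in KD (standard error 0.017, adjusted p = 1.9e-05 from limma), 1.07-fold lower. Its difference in OE was -0.0095 (95% interval -0.044 to 0.025, adjusted p = 0.723 from limma), and OE was above KD by 0.084 (adjusted p = 1.1e-04 from limma). For NCOA4, 4 pseudogenes are annotated and 0 were in the table.

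ACO1 (ENSG00000122729, chromosome 9, plus strand, 32384603 to 32454769) encodes iron-regulatory protein 1, which serves as cytosolic aconitase when it holds an iron-sulfur cluster. Its rlog values were 10.76, 10.77 and 10.80 in PAR, 10.80, 10.72 and 10.77 in KD, and 10.50, 10.55 and 10.49 in OE. The OE libraries were the lowest 3, and KD overlapped PAR. ACO1 fell by 0.26 in OE (SE 0.025, 95% interval -0.31 to -0.21, adjusted p = 2.4e-10 from limma), a level 1.20-fold lower. In KD the difference was -0.012 (95% interval -0.062 to 0.038, adjusted p = 0.717 from limma). The difference between OE and KD was itself called, at -0.25 (adjusted p = 2.7e-10 from limma). Genes around ACO1 shared part of this direction. Of 95 neighbours in its 20-Mb block, 51.6% were called lower in OE, with a median difference of -0.082. With block medians removed, the difference of ACO1 was -0.18 in OE and -0.14 between OE and KD, both still called.

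IREB2 (ENSG00000136381, chromosome 15, plus strand, 78437431 to 78501453) encodes iron-regulatory protein 2, which is degraded when iron is plentiful. Its rlog values were 12.54, 12.57 and 12.57 in PAR, 12.58, 12.56 and 12.53 in KD, and 12.61, 12.58 and 12.58 in OE. PAR and KD overlapped, while the OE libraries lay just above all others. The difference was -0.0060 in KD (adjusted p = 0.793 from limma), 0.030 in OE (95% interval -0.0037 to 0.064, adjusted p = 0.171 from limma) and 0.036 between OE and KD (adjusted p = 0.0742 from limma). This last value was called under 4 alternatives, among them the fit without KD replicate 1 (0.047, adjusted p = 0.0385 from limma), and its adjusted p ranged from 0.0149 to 0.32 over all refits. Without KD replicate 3 the difference was lowest, at 0.024 (adjusted p = 0.32 from limma).

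Within a library, the rlog value of ACO1 minus that of IREB2 was -1.78, -1.80 and -1.78 in PAR, -1.78, -1.84 and -1.76 in KD, and -2.12, -2.03 and -2.09 in OE. OE stood apart from both other groups, which overlapped. Per length of the canonical transcript, the level of IREB2 was 4.06-fold that of ACO1 in PAR, 4.08-fold in KD and 4.97-fold in OE.

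The order of the members was read from the rlog level per kilobase of canonical transcript. In PAR it ran from FTL (14.50) through FTH1 (12.84), TFRC (11.58), NCOA4 (10.62), IREB2 (9.90) and SLC11A2 (8.38) to ACO1 (7.88). The order was the same in KD, where the levels per kilobase were 14.62, 12.39, 10.86, 10.53, 9.89, 8.37 and 7.87, and in OE, where they were 14.69, 12.73, 11.23, 10.61, 9.93, 8.35 and 7.62. Each step between neighbours exceeded the spread between libraries, of which the largest standard deviation was 0.046. That spread does not cover errors between genes, such as the bases FTH1 shares with BEST1 or the choice of transcript length, which were not measured. The narrowest steps were those from TFRC to NCOA4 in KD and from SLC11A2 to ACO1 in PAR and KD.

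Other genes were searched for the profile over the 9 libraries most like that of the 3 members with the widest range of group means. Among 11613 protein-coding genes, the profile of TFRC was nearest to those of GPRC5A, MTMR8 and DUSP10, with root mean square differences of 0.018, 0.028 and 0.030 between centred rlog values. The group means of TFRC spanned 0.72. FTH1, with a span of 0.45, was nearest to DHX30, ABHD17B and MFSD14B (0.024, 0.026 and 0.028), and ACO1, with a span of 0.26, to ZFP42, DYRK3 and NFIB (0.023, 0.031 and 0.032). Such likeness describes these libraries alone.

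The rest of the pathway was read from 7 lists of genes written from general knowledge, with the members left out. Over all genes 53.7% were called in KD and 34.8% in OE, over those whose mean rlog was 8 or more 75.8% and 56.7%, and the medians over all genes were -5.1e-04 and 3.9e-04. Of 13 measured genes of iron uptake and reduction, 4 were called higher and 3 lower in KD, and 3 higher and 4 lower in OE. The called share was thus 53.8% in both comparisons, near that of all genes in KD, and the medians were -0.010 and -8.7e-04. TF, which encodes transferrin, rose most: its rlog values were 7.33, 7.22 and 7.23 in PAR, 8.11, 7.99 and 8.01 in KD, and 7.94, 7.98 and 7.98 in OE. Both altered lines lay well above PAR for the ligand while its receptor TFRC was lower. The differences of TF were 0.78 in KD (adjusted p = 8.6e-17 from limma) and 0.71 in OE (adjusted p = 5e-15 from limma).

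The lipocalin pair of this list moved in opposite directions. SLC22A17, the receptor of lipocalin 2, rose by 0.67 in KD and 0.44 in OE. LCN2, which encodes lipocalin 2, a carrier of iron bound to siderophores, had rlog values of 7.60, 7.59 and 7.63 in PAR, 6.74, 6.72 and 6.61 in KD, and 6.99, 7.07 and 7.05 in OE. The groups did not overlap, and LCN2 fell by 0.92 in KD (adjusted p = 4.8e-18 from limma) and by 0.57 in OE (adjusted p = 3e-12 from limma). In its block of chromosome 9, 83.2% of 208 neighbours were called lower in KD, and with the block median removed the difference of LCN2 was -0.60. SLC39A14, an importer of iron not bound to transferrin, fell by 0.42 in KD and by 0.20 in OE. HFE, whose product binds the transferrin receptor, was chosen after its values were seen: it rose by 0.55 in KD and 0.20 in OE.

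Around ferritin, 9 genes of iron chaperones and of the breakdown of ferritin were measured, with 3 called higher and 3 lower in KD, and 3 higher and 2 lower in OE. These are 66.7% and 55.6%, beside 53.7% and 34.8% of all genes and 75.8% and 56.7% of those at a mean rlog of 8 or more, with medians of -0.0026 and -3.1e-04. Their differences were small. TAX1BP1, an autophagy receptor, rose by 0.15 in KD and 0.088 in OE. PCBP2, a chaperone that hands iron to ferritin and shares 32.7% of its exonic bases with other genes, rose by 0.12 in KD, and its difference in OE, 0.022, was not called. GLRX3, a cytosolic glutaredoxin, fell by 0.13 in KD and by 0.084 in OE. RB1CC1, a part of the autophagy machinery, rose by 0.093 in KD and 0.13 in OE. PCBP4 fell by 0.18 in KD and rose by 0.11 in OE, but 80.9% of its 183 neighbours on chromosome 3 were called lower in KD. With the block median removed, the difference of PCBP4 in KD was 0.097, called in the opposite direction. HERC2, a ligase for NCOA4, fell by 0.051 in OE (adjusted p = 0.0162 from limma), a call lost in 6 refits with adjusted p between 0.0556 and 0.0911, among them those without PAR replicate 1 or 3 and without OE replicate 1 or 2.

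For export and the hepcidin axis, 12 genes were measured, of which 1 was called higher and 3 lower in KD, and 0 higher (2 at an unadjusted p under 0.05) and 2 lower in OE by limma. The called shares were 33.3% and 16.7%, beside 53.7% and 34.8% of all genes, and the medians were 0.0047 and -0.013. These counts depend on the processing: 7 genes were called in KD with block medians removed and 5 in OE after centring libraries on their medians, against 4 and 2 here. Several genes of this list were near the floor, among them HEPH (a mean rlog of 1.56), HJV (0.29), CP (2.08) and HAMP (2.66). BMP2, a signal that induces hepcidin, fell by 0.50 in KD and by 0.66 in OE. In its block of chromosome 20, 53.4% of 88 neighbours were called lower in KD and 63.6% in OE. With block medians removed, the differences of BMP2 were -0.41 in KD and -0.53 in OE, both still called. BMP6, which also induces hepcidin, fell by 0.32 in OE, and its difference in KD, -0.0088, was not called. NDFIP1, an adaptor for ubiquitin ligases, rose by 0.11 in KD, and ERFE, which encodes the hormone erythroferrone, fell by 0.14. Their differences in OE, 0.042 and -0.067, were not called, though that of NDFIP1 was with a filter at a mean rlog of 5 and after that centring (0.052).

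Beside ACO1 and IREB2, 5 genes of their control were measured. In KD 1 was called higher and 2 lower, and in OE 0 higher (2 at an unadjusted p under 0.05) and 2 lower by limma. These are 60% and 40%, beside 53.7% and 34.8% of all genes, with medians of -0.041 and -0.058. The count in OE was 4 of 5 with a filter at a mean rlog of 5 and after centring. FBXL5, the iron-sensing subunit of the ligase that degrades IREB2, had rlog values of 11.87, 11.91 and 11.92 in PAR, 12.14, 12.08 and 12.07 in KD, and 11.82, 11.82 and 11.80 in OE. It was thus highest in KD and lowest in OE, with no overlap. FBXL5 rose by 0.20 in KD (adjusted p = 1.6e-10 from limma) and fell by 0.085 in OE (adjusted p = 7.8e-04 from limma), the latter -0.048 with its block median removed and then not called (adjusted p = 0.0501 from limma, the highest over all refits). CUL1 fell by 0.15 in KD and by 0.078 in OE, and SKP1 fell by 0.060 in KD, with a difference of 0.037 in OE that was called after centring alone (0.047). Both belong to the same ligase.

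**Figure D4:**
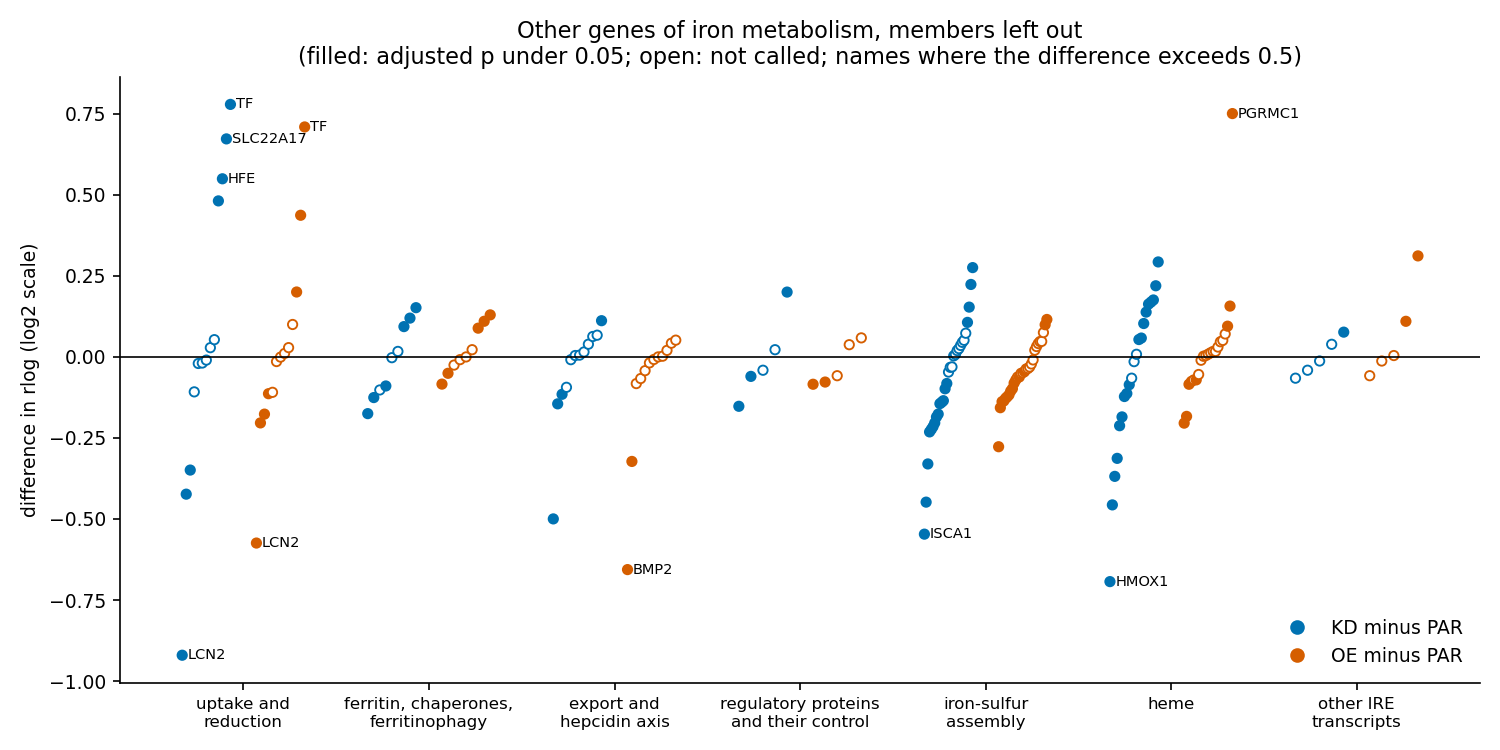
Difference in rlog (log2 scale) from PAR for the genes of the 7 lists without the members, KD in blue and OE in orange, with genes sorted within a list; filled points have an adjusted p under 0.05 from limma. Uptake genes reach 0.78 (TF) and -0.92 (LCN2), and most called genes of iron-sulfur assembly lie below 0 in both comparisons.

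Of 29 measured genes of iron-sulfur cluster assembly and mitochondrial iron, 4 were called higher and 14 lower in KD, and 2 higher and 13 lower in OE, that is 62.1% and 51.7%, beside 53.7% and 34.8% of all genes and 75.8% and 56.7% of those at a mean rlog of 8 or more. The medians of the list were -0.047 in KD and -0.049 in OE, and among all genes whose mean rlog was 8 or more the shares called lower were 39.4% and 31.5%. ISCA1, an assembly protein of the mitochondrion, fell by 0.55 in KD and by 0.11 in OE, and NDOR1, an electron donor of the cytosolic pathway, fell by 0.45 in KD and by 0.28 in OE. Both lie on chromosome 9 among genes that were mostly lower in KD (84.5% of 84 neighbours of ISCA1 and 83.2% of 208 of NDOR1 were called lower), and their differences there were -0.25 and -0.13 with the block medians removed. The difference of ISCA1 in OE was then -0.059 (adjusted p = 0.0496 from limma, the highest over its refits). NDOR1 also shares 36% of its exonic bases with other genes. FDXR, a reductase that feeds electrons to cluster assembly, fell by 0.22 in KD and by 0.16 in OE. On the other side, MMS19, which hands clusters to nuclear proteins, rose by 0.22 in KD and 0.12 in OE, and CIAO2A rose by 0.15 in KD and 0.099 in OE. BOLA1 rose by 0.28 in KD, and its difference in OE, 0.041, was not called.

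Of 21 measured genes of heme synthesis, transport and breakdown, 9 were called higher and 9 lower in KD, and 3 higher and 5 lower in OE. These are 85.7% and 38.1%, beside 53.7% and 34.8% of all genes and 75.8% and 56.7% of those at a mean rlog of 8 or more, with medians of -0.015 and 0.0084. HMOX1, which encodes the inducible heme oxygenase that frees iron from heme, had rlog values of 7.84, 7.89 and 7.82 in PAR, 7.16, 7.16 and 7.15 in KD, and 7.67, 7.65 and 7.62 in OE. Like TFRC and FTH1, it was highest in PAR, lower in OE and lowest in KD. Other genes of the lists had this order too, among them LCN2, SLC39A14 and ALAS1, and its share over all genes was not counted. HMOX1 fell by 0.69 in KD (adjusted p = 3.7e-16 from limma) and by 0.20 in OE (adjusted p = 9.4e-05 from limma). BLVRA, which acts on biliverdin, the product of heme oxygenase, rose by 0.29 in KD and 0.094 in OE, the latter not called without OE replicate 2 (0.072). PPOX, with 26.2% of its exonic bases shared, rose by 0.22 in KD, and its difference in OE, 0.017, was not called. SLC25A38, the mitochondrial glycine carrier, fell by 0.46 in KD, or by 0.24 with its block median removed. Its difference in OE was -0.071 and not called, but was called under 6 alternatives, at -0.12 with the block median removed and at -0.094, -0.086 and -0.087 without PAR replicate 1, OE replicate 1 and OE replicate 3.

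In OE the widest difference of the heme list was that of PGRMC1, a heme-binding membrane protein. Its rlog values were 10.82, 10.87 and 10.84 in PAR, 10.97, 10.96 and 11.01 in KD, and 11.60, 11.60 and 11.58 in OE. OE stood far above both other groups, a rise of 0.75 (adjusted p = 6.2e-23 from limma), and in KD it rose by 0.14, or by 0.074, still called, with its block median removed. BLVRB, a biliverdin reductase, fell by 0.12 in KD and rose by 0.16 in OE. ALAS1, the first enzyme of heme synthesis, fell by 0.31 in KD and by 0.18 in OE. Of its 183 neighbours on chromosome 3, 80.9% were called lower in KD. With the block median removed, the difference of ALAS1 in KD was -0.041 and not called (adjusted p = 0.0617 from limma, the highest over its refits). Of 5 other transcripts described as carrying an IRE, 1 was called higher and 0 lower in KD, and 2 higher and 0 lower in OE by limma, where an unadjusted p under 0.05 gave 0 lower in KD and 1 lower in OE. These are 20% and 40% called, beside 53.7% and 34.8% of all genes, with medians of -0.013 and 0.0040, and 2 genes were called in KD without a variance trend. The letters searched above had 0 matches in EPAS1 and CDC42BPA. EPAS1, a hypoxia-inducible factor, rose by 0.31 in OE, with a difference of -0.013 in KD that was not called, and CDC42BPA, a kinase, rose by 0.076 in KD and 0.11 in OE.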

How the data were processed

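Total RNA was made into 9 libraries, 3 per group, with the TruSeq RNA v2 kit, which does not mark strand, and sequenced as read pairs. The authors used cutadapt for trimming, HISAT2 for mapping to GRCh38 and featureCounts of Subread for counting, and dropped genes whose total count was under 10; DESeq2 is named in the submitters' processing notes, and versions are not given in the sources used here. The values the authors deposited are on a log2 scale (rlog) for 22290 genes; 3 further columns were empty. The depth of single libraries cannot be read from rlog, and the nominal read number in the study's methods was not used. Of the gene IDs, 22195 matched a symbol. Groups and replicate numbers came from the sample titles.

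Group means were compared with limma 3.58.1 in R 4.3.3 (all 9 libraries in 1 fit, variance trend, no filter, no block, Benjamini-Hochberg over 22290 genes, called at an adjusted p under 0.05, 95% intervals), after the script was tested on simulated data. The tables were built with Python 3.11.15 and pandas 2.3.3, and UTRs, overlaps and pseudogenes came from GENCODE annotation of the same build. Named were all members, TRAP1, the most abundant gene and selected genes of each marker list, pseudogenes of members, and in each list and comparison with PAR the 2 non-members with the largest called increase and the 2 with the largest called decrease; HFE and export genes near the floor were added. Likeness was the root mean square difference of 9 centred values among protein-coding genes whose mean rlog was 5 or more. Neighbours were genes of that level in the same 20-Mb block with at least 10 genes. Alternatives were no variance trend, a replicate block, a filter at a mean rlog of 5, 6 libraries per fit, centring on medians, removal of block medians, other thresholds and leaving out each library. The members and lists were chosen with earlier results of these data known. Part of the hairpin search and of the marker values is not reported here.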

Additional observations from a re-analysis of the deposited data

How the results depend on the processing

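The 7 members in 3 comparisons were refitted under 15 settings, 9 of which left out 1 library each. Of these 315 values, 311 kept their call and direction or stayed uncalled, 4 became called (all of IREB2 between OE and KD, with adjusted p from limma of 0.0482 with a filter at a mean rlog of 5, 0.0218 after centring, 0.0149 with block medians removed and 0.0385 without KD replicate 1), 0 lost a call and 0 reversed. Members called numbered 4 in KD and 4 in OE in every refit, and 5 to 6 between OE and KD. All genes called ranged from 10189 to 13137 in KD, 6857 to 8222 in OE and 9171 to 11824 between OE and KD. The counts 10189 and 9171 came from the filter at a mean rlog of 5, under which 14000 genes were tested, not 22290. With a difference over 0.5 also required, limma called 1110, 200 and 793 genes, and 1, 0 and 0 members, against 4, 4 and 6 members at an unadjusted p under 0.05; the added threshold itself removes the smaller differences, and 1 is TFRC in KD. With the replicate number as a replicate block, 12015, 7854 and 10623 genes and 4, 4 and 5 members were called. Same-numbered libraries correlated at -0.071 to 0.14 in 9 pairs, against -0.14 to 0.075 in pairs of different number. Between KD and OE the same-numbered pairs were at 0.12, 0.023 and 0.14, and between PAR and the others at 0.013 or less, so over the 3 groups the numbers were not taken to pair the libraries. The lists and their genes were put through the same refits, a choice made after seeing the data. With block medians removed, the export list had 7 genes called in KD; without a variance trend the other IRE transcripts had 2 in KD; after centring the export list had 5 in OE and the regulatory list 4, the number it also had with the filter; the cause was not tested. Removing block medians reversed the called difference of PCBP4 in KD (0.097). LTF (0.25) and HJV (-0.032), at mean rlog values of 0.32 and 0.29 and not called before, were called in the opposite sign, at levels where the value is mostly the median subtracted. The depth of each library is not known from rlog, so what it limits could not be read.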
